A study of Canis lupus familiaris with 16 samples.

Results

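MYC and MYBL1 are genes of 2 proto-oncogene transcription factors, proteins that bind DNA and set the transcription of other genes. They are 2 of the 24580 canine genes measured by RNAseq in meningiomas, tumors of the membranes around the brain and spinal cord, and in normal meninges. Both were selected on their measured difference between tumor and control, having been listed by the study among the genes overexpressed in meningioma. That difference is therefore described below without a test. MYC has the identifier ENSCAFG00000001086 and MYBL1 has ENSCAFG00000007344. In the RefSeq annotation of the dog assembly UU_Cfam_GSD_1.0, MYC lies on chromosome 13 between LRATD2 and LOC100856037 and has 1 annotated transcript. In the same annotation MYBL1 lies on chromosome 29 between VXN and VCPIP1 and has 2. None of these neighbouring coding genes is among the genes the study listed.

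The MYC protein pairs with MAX and binds E-box sequences near genes for ribosome production, nucleotide synthesis and entry into the cell cycle. Its transcript and its protein are both short-lived, and its transcription is raised by growth factor signaling and by the canonical WNT pathway through beta-catenin. MYBL1, also called A-MYB, belongs to the MYB family with MYB and MYBL2. It is best known for driving the meiotic gene program of male germ cells, it is made by germinal center B cells, and it is rearranged in some low-grade gliomas of children.

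The 13 meningiomas came from pet dogs of several breeds. The labels grade 6 as I, of which 5 were transitional and 1 meningothelial, and 7 as II, all atypical. The study kept these tumors from a larger sequenced set. It left out cases with low mapping, outliers in preliminary principal components and cases rediagnosed as melanoma. Spread and correlation among tumors below are thus those of the kept set. The 3 controls were leptomeninges of healthy research beagles, collected shortly after euthanasia and frozen. The study places a few tumors in the spinal column and the control meninges over the cortex of the brain, and sites were not compared here. Most tumors were formalin-fixed and paraffin-embedded and a few were frozen, so breed cannot be told apart from the tumor itself, and fixation and RNA purification method, which differ for most tumors, were not separated from it here. Nothing was given to the dogs as a treatment in the labels, and the age of the controls was not given in the sources used here. Each library is numbered within its group (0 to 12 and 0 to 2) and is not tied by its name to a sample label, so grades and preservation methods were not compared here.

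Depth was 2138741 to 7358925 gene-assigned fragments in the meningioma libraries and 2269204 to 7054614 in the controls. Meningioma libraries 2 and 12 stood apart on the third principal component, at 70.3 and 67.5 against -34.9 to 14.9 in the other 14 libraries. Podoplanin (PDPN), a meningeal and arachnoid cell marker, was at 44.1 to 478.1 FPKM in the tumors and at 16.9 to 44.6 in the controls, and the other meningeal markers were not analysed here. FPKM is fragments scaled by transcript length and library size, a level that can be compared between genes. The 13 endothelial markers summed to 53.5 to 217.6 FPKM in the tumors against 521.7 to 865.4 in the controls, and all 13 were lower at an edgeR adjusted p under 0.05, as were 3.55% of all tested genes. The 6 mural (smooth muscle and pericyte) markers summed to 14.5 to 54.4 FPKM against 131.0 to 327.0, and all 6 were lower by the same test. The study had listed these markers as underexpressed on the same samples. In bulk tissue, fewer cells of a type and less RNA per cell cannot be told apart, and the part of these markers in the values of MYC and MYBL1 between the groups was not tested.

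MYC was abundant in most meningiomas. Its level ranged from 13.7 FPKM (library 6) over a median of 76.3 to 110.6 (library 0) in the tumors, with a mean of 67.8 ± 28.9 (SD, n = 13). The controls were at 24.8, 13.2 and 14.1 FPKM, with a mean of 17.4 ± 6.46 (SD, n = 3). All tumor libraries but library 6 lay above the highest control, and library 6 lay within the range of the controls. The 12 libraries above the controls ran from 36.3 FPKM (library 5) upwards, so the lowest of them stood clear of the highest control. Across all tested genes, 5.30% had 12 or more of the 13 meningioma libraries above all controls, a share from which nothing is read here because the same contrast chose MYC.

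**Figure D1:**
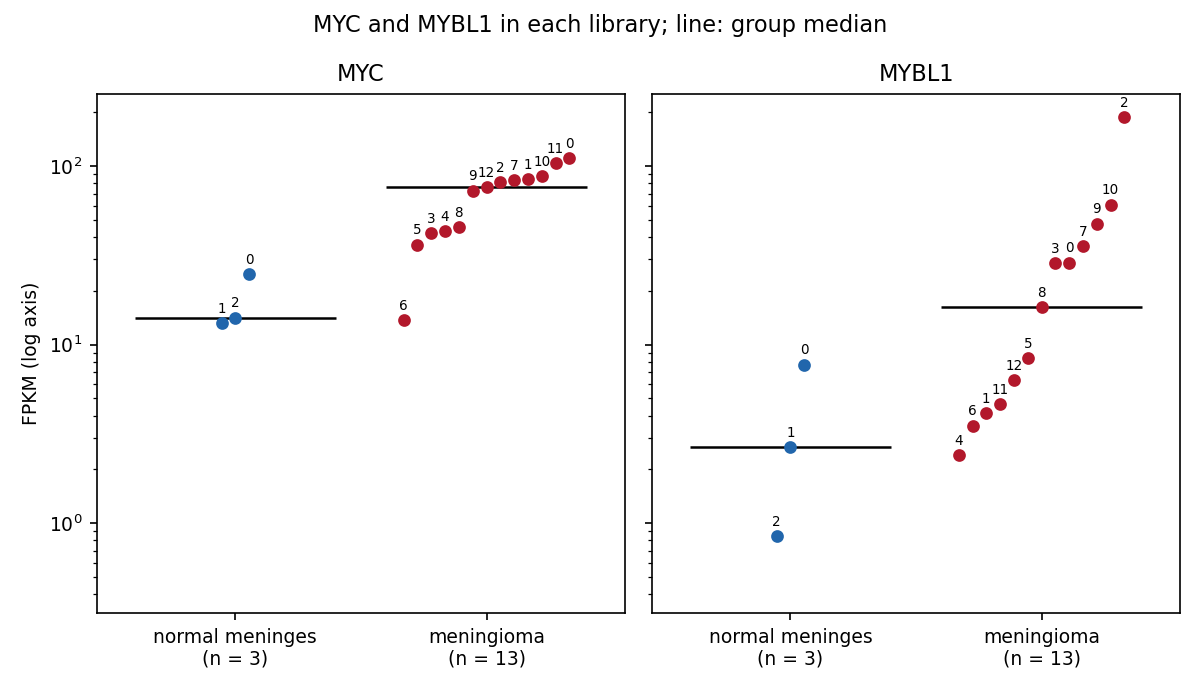
FPKM of MYC and MYBL1 in each library on a log axis, with controls in blue, meningiomas in red, library numbers beside the points and a line at each group median. For MYC, library 6 alone of the 13 meningiomas lies among the controls; for MYBL1, 5 meningiomas lie at or below the highest control.

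The fitted log2 difference of MYC between meningioma and control was 1.97 (SE 0.50), or 3.91-fold. Each SE of a fitted difference, here and below, was worked back from the edgeR F statistic. It is the size of the log2 difference divided by the square root of F, and for MYC and MYBL1 no test is read from it. By library, the tumors ranged from 0.787 to 6.36 times the control mean in FPKM, and 12 were at 2-fold or more. These levels rested on 138 to 1901 fragments per tumor library (median 692) and on 459, 86 and 173 in the controls. Within each library, MYC stood at percentile 66.2 to 96.1 of detected genes in the tumors, with a median of 92.7, and at 78.0, 65.2 and 60.7 in the controls. Its rank by FPKM was as high as 630th (library 11) and as low as 6286th (library 6) among tumors. In the controls it ranked 4017th, 6542nd and 6594th.

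MYBL1 was more uneven. Its level ran from 2.40 FPKM (library 4) over a median of 16.2 to 188.4 (library 2) in the tumors, with a mean of 33.5 ± 50.2 (SD, n = 13), an SD larger than the mean. The controls were at 7.69, 2.65 and 0.845 FPKM, with a mean of 3.73 ± 3.55 (SD, n = 3). Of the tumor libraries, 8 lay above the highest control, 5 (libraries 1, 4, 6, 11 and 12) lay within the range of the controls, and none lay below it. Library 5, at 8.39 FPKM, was just above the highest control and library 12, at 6.32, just below it. The share of all tested genes with 8 or more of 13 meningioma libraries above all controls was 22.9%, and nothing is read from it for the same reason.

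The fitted log2 difference of MYBL1 was 3.29 (SE 1.35), or 9.81-fold. Of single libraries left out, meningioma library 2 and control library 0 moved this difference most. Without meningioma library 2 it was 2.58, or 5.98-fold, and without libraries 2 and 12 it was 2.67, or 6.35-fold. Without control library 0, the highest control, it was 4.28, or 19.5-fold. For MYC the same omissions gave log2 differences of 1.94, 1.92 and 2.32. By library, MYBL1 in the tumors was at 0.643 to 50.5 times the control mean in FPKM, and 8 were at 2-fold or more.

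**Figure D2:**
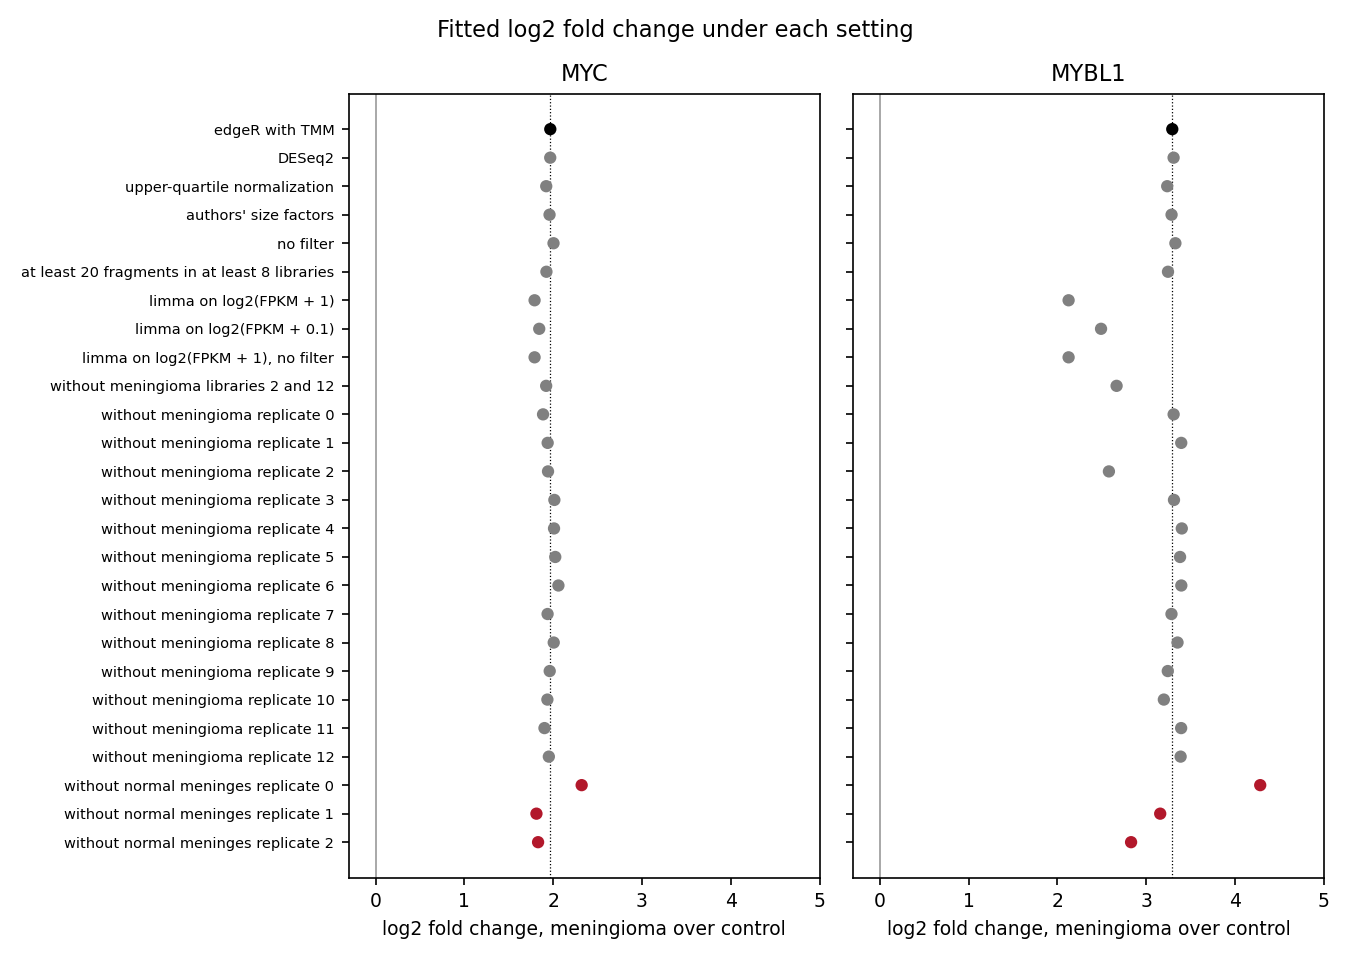
Fitted log2 fold change of MYC and MYBL1, meningioma over control, under edgeR (black, dotted line), under the alternatives and with one tumor library left out (gray), and with one control left out (red). MYC stays between 1.79 and 2.32, while MYBL1 moves between 2.13 and 4.28.

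Few fragments lay behind the low end of MYBL1. The control libraries held 247, 35 and 21 fragments of it, and the 21 have a 95% exact Poisson interval of 13.0 to 32.1, which covers counting error only. The tumor libraries held 47 to 3627 fragments (median 501). MYBL1 stood at percentile 26.5 to 96.99 of detected genes in the tumors (median 66.3) and at 49.6, 31.1 and 14.2 in the controls. In library 2 it ranked 488th by FPKM, above MYC, which ranked 1184th there.

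The conversion from scaled fragments to FPKM was constant for MYC, at 90.31 FPKM per 1000 scaled fragments in every library. For MYBL1 it was 44.52 in 2 of the controls and 52.0 in control 0, and 44.52 to 45.46 among the tumors. MYBL1 in control 0 is thus set relatively higher on the FPKM scale than on the fragment scale. On counts scaled by library size (CPM), which use no length, that library was at 34.1 and the same 8 tumor libraries were above all controls. Whether a different mix of transcripts lies behind this value was not tested.

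Among the tumors the study kept, MYBL1 varied more than most tested genes did. The SD of log2 CPM over the 13 meningiomas was 0.83 for MYC and 1.88 for MYBL1, against a median of 0.58 for all tested genes. These SDs stood at percentile 71.4 and 97.7 of tested genes. Counting error made up 0.573% of the variance for MYC and 0.332% for MYBL1. The highest tumor was 8.09 times the lowest in FPKM for MYC and 78.6 times for MYBL1.

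The biological coefficient of variation, the relative spread left after counting error, was 0.503 for MYC and 1.18 for MYBL1. It was estimated in edgeR from the 13 meningioma libraries alone, with no sharing between genes, apart from the fit that gave the fold changes. Genes of like mean level, 1028 and 1034 of them, had a median of 0.306 in both cases. MYC lay at percentile 81.0 and MYBL1 at 98.0 of those genes. When the tumor libraries were put in order of level, the 95% counting intervals of neighbours overlapped in 9 of 12 pairs for MYC and in 5 of 12 for MYBL1. Most steps in the order of MYBL1 thus lie beyond these intervals. Overlap, as in most steps for MYC, does not show that neighbours are equal, and single pairs were not tested.

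**Figure D3:**
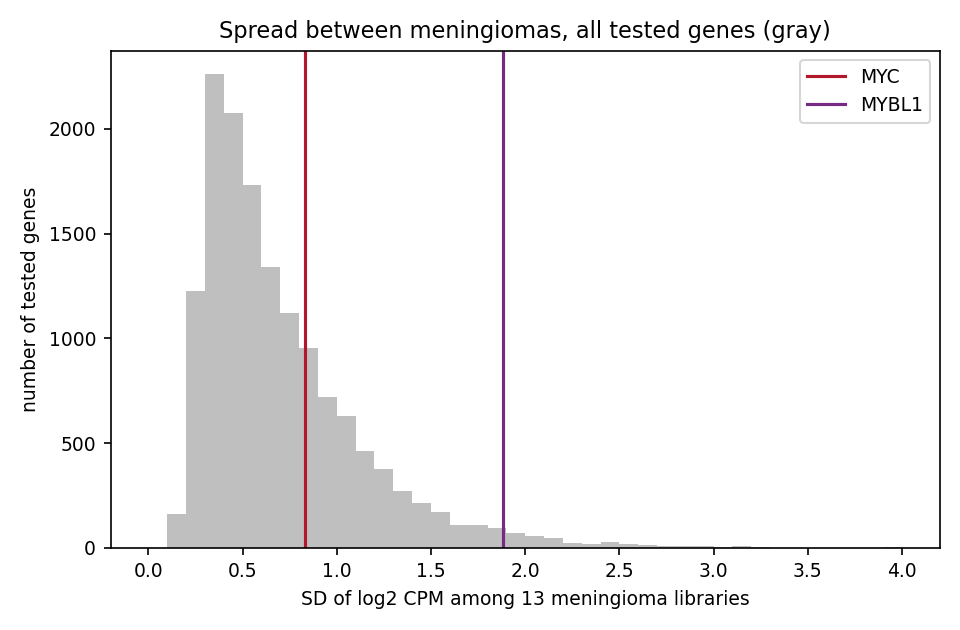
Number of tested genes by their SD of log2 CPM among the 13 meningioma libraries, with MYC (red line) at 0.83 and MYBL1 (purple line) at 1.88. MYC lies in the upper shoulder of the gray distribution and MYBL1 in its right tail.

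High MYC did not go with one level of MYBL1. Libraries 1 and 10 had close MYC levels, 84.5 and 87.8 FPKM, and MYBL1 levels of 4.12 and 60.9 FPKM. Libraries 11 and 0 had the highest MYC, 104.1 and 110.6 FPKM, with MYBL1 at 4.62 and 28.7. Libraries 2 and 12, which stood apart together on the third component, had MYC at 81.1 and 76.3 FPKM but MYBL1 at 188.4 and 6.32. The ratio of MYBL1 to MYC in FPKM ran from 0.0444 to 2.32 in the tumors (median 0.260), was above 1 in library 2 alone, and ran from 0.0598 to 0.310 in the controls.

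Across the 13 meningiomas, the log2 CPM of MYC and MYBL1 had a Pearson r of 0.40 (95% interval -0.19 to 0.78, permutation p = 0.171) and a Spearman rho of 0.38 (permutation p = 0.201). The rho had a Benjamini-Hochberg adjusted p of 0.539 and the r one of 0.475, over a family of 9 relations in a two-sided permutation test. Without libraries 6 and 5, the farthest from the median of MYC, r was 0.18 and rho 0.22 (permutation p = 0.522). Without libraries 2 and 12, rho was 0.46. The interval spans both no relation and a strong one, so the number of libraries does not settle whether the genes varied together. Of all other tested genes, 5% had a rho with MYC above 0.48 and 5% had one with MYBL1 above 0.51.

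**Figure D4:**
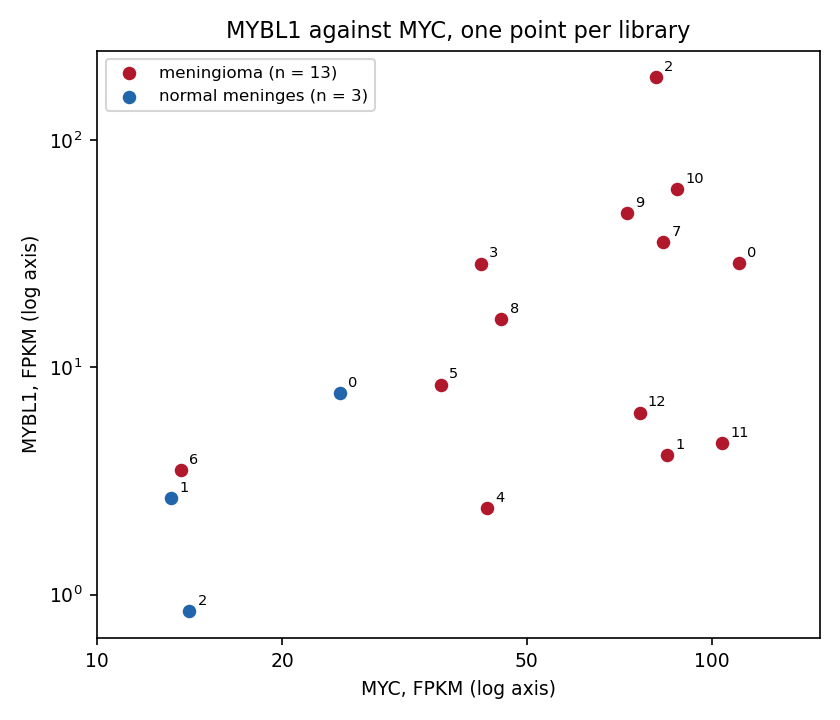
MYBL1 against MYC in FPKM, both on log axes, with one point per library, meningiomas in red and controls in blue, and library numbers beside the points. Among tumors with MYC above 70 FPKM, MYBL1 spans 4.12 to 188.4 FPKM.

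No relation of either gene with depth or with a marker list passed the permutation test. MYC had a rho of 0.20 with depth, 0.35 with the immediate-early genes, -0.42 with the endothelial markers and -0.12 with the mural markers. MYBL1 had a rho of -0.20, -0.14, 0.29 and 0.41 with the same measures. Of the 9 relations, 0 passed at an adjusted or at an unadjusted p under 0.05, by Spearman or by Pearson, and the lowest adjusted p was 0.539 by Spearman and 0.475 by Pearson in the permutation test. Library 6, with the lowest MYC, was the meningioma nearest the controls on the first principal component, at 14.8 against 61.8 to 73.9 in the controls and at most 5.9 in the other meningiomas. Its endothelial markers summed to 170.3 FPKM, below the 217.6 of library 7, where MYC was at 83.5 FPKM. The PDPN of library 6, 131.9 FPKM, and its KLF5, 102.3 FPKM, were in the range of the other tumors.

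Of the 122 other genes with a symbol in the lists of the study, those most like MYC across the 13 meningiomas were FBLN2 (rho 0.63), an extracellular matrix protein, AMPD3 (0.58), an AMP deaminase, and CHGA (0.52), a secretory granule protein. Among those most opposed were TEK (-0.59) and TIE1 (-0.54), receptor kinases of endothelial cells. For MYBL1 they were WNT5A (0.69), a WNT ligand, STXBP6 (0.66), a syntaxin-binding protein, and CTPS1 (0.66), a CTP synthase. The most opposed were PERP (-0.75), a desmosome protein, GPR133 (-0.64), an adhesion receptor, and TF (-0.60), transferrin. These values share their libraries and depth and describe the order of 13 libraries only. Libraries 2 and 12 left out gave 0.68 for FBLN2 with MYC, 0.64 for WNT5A with MYBL1 and -0.71 for PERP with MYBL1.

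Among the other listed transcription factors analysed here, 1 of 8 rose, 2 fell and 5 did not pass the edgeR test (adjusted p under 0.05). Of all tested genes, that test called 4.86%, and 1.31% as higher. The count depended on the test: 7 of the 8 had an unadjusted edgeR p under 0.05, DESeq2 called 7 and limma on log2(FPKM + 1) called 3. The shares of all tested genes were 20.2%, 9.53% and 5.50%. FOS, FOSB, EGR1 and NR4A1 are among the 5 and are counted again below as immediate-early genes. The genes of this list, and of those that follow, were drawn from genes the study listed on these samples, so their direction is no independent evidence. KLF5, a Krüppel-like factor of epithelia, rose by 3.23 on the log2 scale (SE 0.37, edgeR adjusted p = 8.30e-05). All 13 tumors exceeded the controls for KLF5, and 5.73% of tested genes had all 13 on one side of the controls. ETS1, an ETS factor of endothelium and lymphocytes, fell by 1.52 (edgeR adjusted p = 0.0161), and ZFHX4, a zinc finger homeobox factor, fell by 2.09 (edgeR adjusted p = 0.0276). The call of ETS1 was lost without control 1 or 2 and that of ZFHX4 without any single control, with edgeR adjusted p up to 0.176 and 0.170, while that of KLF5 held in every setting run. MYRF, a factor known from myelin-forming cells, was at a log2 difference of 2.08 (edgeR adjusted p = 0.0540), with FPKM of 4.21 to 46.2 in the tumors. MYRF passed with DESeq2, without tumor library 2, without library 6 and without libraries 2 and 12 together, its adjusted p being 0.00258 to 0.279 over all settings.

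The immediate-early genes FOS, FOSB, EGR1, NR4A1 and ZFP36, like MYC, respond to growth signals within minutes, the first 4 being transcription factors and ZFP36 an RNA-binding protein that destabilizes mRNAs. Of these 5, 0 passed edgeR's adjusted threshold, 4 had an unadjusted p under 0.05, DESeq2 called 4 and limma on log2(FPKM + 1) called 0. Of all tested genes, 20.2% had an unadjusted edgeR p under 0.05, DESeq2 called 9.53% and limma 5.50%. Their log2 differences were 2.84 to 5.99 with a median of 3.17, beside 0.06 for all tested genes. Their summed level ran from 32.8 to 1872 FPKM in the tumors against 33.2 to 55.7 in the controls, so the lowest tumor was below every control.

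Among the branches of WNT signaling, it is the canonical one, through beta-catenin, that raises MYC transcription. A group of 8 other genes listed by the study is called WNT pathway genes here, with no separation of canonical from other branches. The study ties 2 of the 8, MCAM and FLT1, to WNT5A. Whether any of the 8 acts on MYC in these tumors was not tested. WNT5A rose by 2.48 (edgeR adjusted p = 0.0367), as did DACT2, a Dishevelled-binding protein, by 2.60 (edgeR adjusted p = 0.0345). The calls of WNT5A and DACT2 were both lost when any single control was left out, with edgeR adjusted p up to 0.174 and 0.214. The other 6 fell, with log2 differences of -3.31 to -2.86. Of all tested genes, edgeR called 1.31% higher and 3.55% lower (adjusted p under 0.05). The 8 were drawn from genes the study listed on this same contrast, so nothing is read from their count. The 6 that fell are SFRP1 and FRZB, secreted WNT inhibitors, DAAM2, a Dishevelled-associated formin, CPZ, a carboxypeptidase that binds WNT, and MCAM and FLT1. MCAM and FLT1 are also among the mural and endothelial markers. The call of SFRP1 was lost without control 0 and that of CPZ without control 2, at edgeR adjusted p of 0.0562 and 0.0921. The median of the 8 was -2.98 on the log2 scale, beside 0.06 for all tested genes.

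Of the 3 listed genes in a group called MYC-linked here, 1 rose, 1 fell and 1 did not pass. Of all tested genes, 1.31% were called higher and 3.55% lower by edgeR. PERP, a p53 and p63 target of desmosomes, rose by 2.09 (edgeR adjusted p = 0.0103), a call lost without control 0 or 2 (edgeR adjusted p up to 0.0928). The study connects PERP with MYC only by way of p53, described as raised together with MYC in some meningiomas. MYCT1, named as a MYC target and known from endothelium, fell by 2.73 (edgeR adjusted p = 4.98e-04). CTPS1, whose nucleotide product MYC-driven growth uses, was at 1.53 (SE 0.47, edgeR adjusted p = 0.0711). For CTPS1, 12 of 13 tumors exceeded the controls, and 5.30% of all tested genes had 12 or more doing so. CTPS1 passed without tumor library 6 and with DESeq2, its adjusted p being 0.00493 to 0.300 over all settings.

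**Figure D5:**
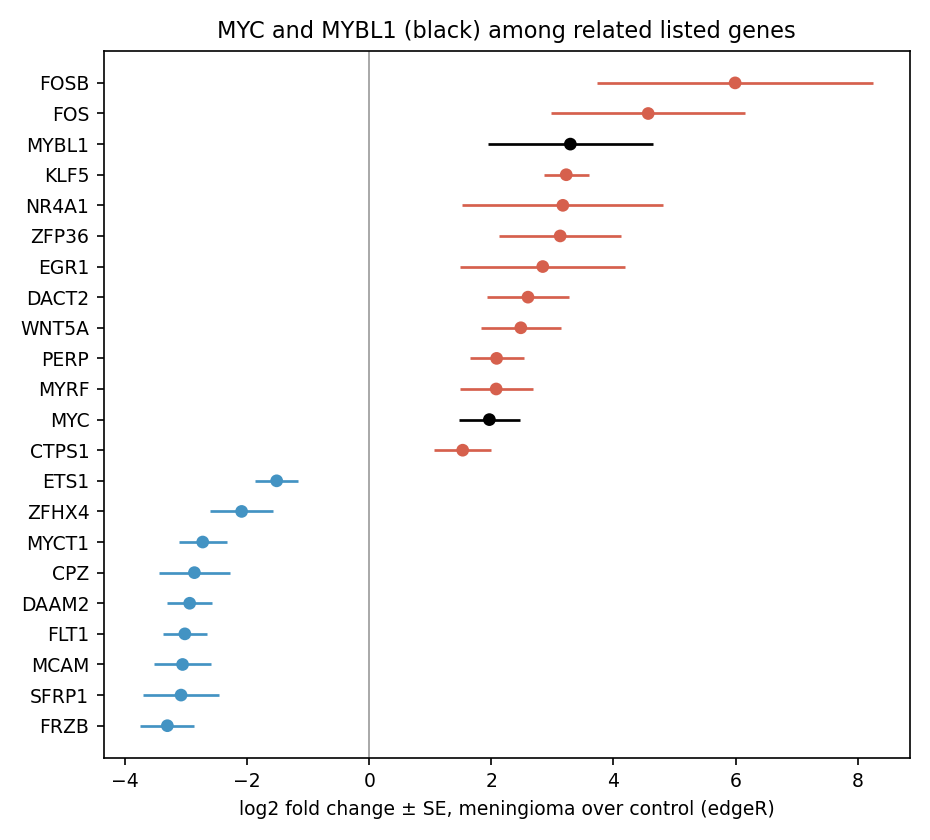
Fitted log2 fold change ± SE (edgeR), meningioma over control, of MYC and MYBL1 (black) and of the listed transcription factors analysed here, immediate-early genes, WNT pathway genes and MYC-linked genes, with red for those the study listed as higher and blue for those it listed as lower. Each SE is the size of the log2 difference divided by the square root of the edgeR F statistic. MYBL1 has an SE of 1.35 and MYC one of 0.50, and the widest bars belong to FOSB, NR4A1, FOS, MYBL1 and EGR1.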

How the data were processed

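RNAseq libraries of 13 meningiomas and 3 normal meninges were rRNA-depleted, strand-specific and single-end. The authors removed rRNA and small RNA reads and mapped the rest to Ensembl CanFam3 (submitters' notes: cutadapt 1.8, TopHat2 2.0.13, Cuffdiff 2.2.1). The deposited table holds Cuffdiff's estimated counts of fragments per gene and library (not whole in 1364 of 393280 values, none in MYC or MYBL1). The authors also gave a signal, the fragments divided by a size factor per library, and FPKM, computed with transcript length. Condition N was taken as normal meninges and condition C, with 13 libraries, as meningioma. 

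Counts were rounded, scaled by TMM and fitted in edgeR 4.0.16 (R 4.3.3, quasi-likelihood). The 14345 genes that reached 10 fragments in 3 or more libraries were tested, and p-values were Benjamini-Hochberg adjusted over them. Alternatives were DESeq2 1.42.0, other size factors and filters, limma 3.58.1 on log2 FPKM with a pseudocount of 1 or 0.1, and each library left out. Correlations used scipy 1.17.1 with 100000 permutations on log2 CPM (prior count 2). Scripts were tested on simulated data.

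No 2 libraries were identical, and each library is taken as 1 dog. Genes named are MYC, MYBL1, the 3 highest and 3 lowest by rho with each, and the members of the transcription factor, immediate-early, WNT and MYC-linked lists, apart from some that are not reported here. MYC, MYBL1 and all lists were chosen with earlier results of these data known. Symbols came from the study's lists (124 identifiers). MAX and other MYC network, MYC stability and target, MYB partner, proliferation, immune and neural genes had no symbol there (apart from MYC, MYBL1 and CTPS1) and were not analysed here. No sequences were used.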

Additional observations from a re-analysis of the deposited data

How the results depend on the processing

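The log2 difference of MYC kept its direction under all 9 alternatives (1.79 to 2.00) and with each library left out (1.81 to 2.32), and so did that of MYBL1 (2.13 to 3.33, and 2.58 to 4.28). The lowest MYBL1 value came with limma on log2(FPKM + 1), and a pseudocount of 0.1 in its place gave 2.49. The number of genes called in meningioma against control was 697 with edgeR, 1364 with DESeq2 (48.5% higher in meningioma, against 27.0% with edgeR) and 1115 with limma on log2(FPKM + 1) without a filter. It was 169 to 931 with one library left out, being 245, 350 and 169 without control 0, 1 and 2. The other alternatives gave 505 to 1036. Of the 9 relations among meningiomas, 0 were called under 5 alternatives and with each tumor library left out. The rho of MYC with MYBL1 was 0.33 to 0.46 under the alternatives (adjusted p 0.457 to 0.572) and 0.23 to 0.55 with a library left out. The sign turned for MYC with depth (-0.014 to 0.39, negative without library 0) and for MYC with the mural markers (-0.27 to 0.056, positive at 0.056 and 0.014 without libraries 0 and 6), and the cause was not tested. Of the markers, the calls of NOS3 (without control 2) and SHE (without control 0 or 2) were also lost. No paired analysis was possible because tumors and controls came from different dogs and the library numbers are not tied to the sample labels. With 3 controls, the level of normal meninges rests on few animals, and 21 to 247 fragments of MYBL1 in them limit its fold.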
